A study of Mus musculus with 20 samples.

Results

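The comparison set 4 arrays of a late stretch, time points 8 and 9, against 4 arrays of an early stretch, time points 3 and 4, out of 20 arrays in the series. These 8 arrays were chosen by their time points and not by a cut on their values, but earlier results of these data were known. All RNA came from Hepa1-6, an established mouse hepatoma line, so every sample stems from 1 liver tumour line and stands in for liver only to that extent. Both kinds of flask held the same DMEM medium with 25 mM glucose, serum replacement and antibiotics, and the cells were confluent when the experiment began. Control flasks had 4 mM glutamine throughout the 96 h. Experimental flasks began without glutamine (0 mM), were given 4 mM after 24 h, had none again from 48 h and were given 4 mM again from 72 h. Every array was a two-colour hybridisation of RNA from an experimental flask (dye Cy5) and RNA from a control flask (dye Cy3), and its value for a probe is a log2 ratio. A positive ratio likely stands for a higher level in the flask with varied glutamine, since the labels list that RNA first, and base 2 is likewise an assumption. Each of the 4 time points compared had an unmarked array and an array marked r. The labels state neither what r means nor the hour of a time point, nor which glutamine level its flask had when sampled.

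Glutamine is the most abundant amino acid of blood plasma and of most culture media. Cells hydrolyse it to glutamate, feed the carbon into the tricarboxylic acid cycle and use the nitrogen for nucleotides, other amino acids and glutathione. In the liver, cells near the portal vein break glutamine down for urea synthesis and cells near the central vein synthesise it. A shortage of amino acids leaves transfer RNA uncharged, which activates the kinase GCN2 and the transcription factor ATF4. ATF4 in turn induces amino acid transporters, aminoacyl-tRNA synthetases and enzymes such as asparagine synthetase.

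The 8 arrays gave a value for 4269 to 8269 of 17280 probes (24.7% to 47.9%), and their medians as deposited lay between 0.17 and 0.43. Each array was centred on its median and the probes of a gene were averaged. Of 15968 genes or unnamed probes, 3932 had 3 or more values in each stretch and were tested, among them 3478 with a gene symbol. The depth behind a ratio is unknown, and the number of arrays limits the precision. The median standard error (SE) of a difference was 0.14 on the log2 scale, so a difference of 0.28 was needed for an unadjusted p of 0.05. Each SE given here is the moderated one of limma, which draws the variance of a gene toward that of all genes. For a gene with widely spread arrays it is smaller than those arrays alone would give. The unmarked array of time point 4 has a control channel labelled as lacking glutamine, unlike the other arrays. This label was treated as a slip. Across probes this array correlated with its r partner at 0.665 and with the unmarked array of time point 3 at 0.710, the 2 highest values among the 28 pairs of the 8 arrays. These correlations do not settle the label. Array pairs of 1 time point correlated at 0.548 to 0.665 and pairs across the stretches at 0.293 to 0.639. Of 19 hepatocyte markers, 13 were on the array and 5 were tested, and albumin (Alb) had a value on 3 of the 8 arrays. A ratio shows how 2 flasks compare and not how strongly a gene is expressed, so the identity of the cells cannot be read from it.

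Between the stretches, the ratio of 3 genes rose and that of 1 fell. Mtmr9, Map2k6 and Csnk1g2 were below the median ratio in the early stretch and nearer to it in the late stretch, by 2.04 to 2.89-fold. Mroh3 was near the median ratio early and at 0.556 of its early ratio late. These 4 genes are 0.102% of the genes tested (0.0763% higher and 0.0254% lower, limma, Benjamini-Hochberg adjusted p under 0.05). At an unadjusted p under 0.05 there were 573 genes (14.6%), of which 214 were higher late (5.44%) and 359 lower (9.13%). All late arrays lay above all early arrays for 140 genes (3.56%) and below them for 265 (6.74%). The larger number on the lower side goes with a median difference of -0.03 over all genes, with 1679 differences above 0 and 2253 below. In these bulk samples of 1 cell line, fewer cells in a given state and less RNA per cell cannot be told apart. A change in the experimental flasks and an opposite change in the control flasks cannot be told apart either, since only their ratio is given. Since the labels do not say whether r marks another flask, p-values measure only the spread between these arrays, which may be technical.

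The count of called genes depended on single arrays. Without the unmarked array of time point 4 no gene was called in either direction (364 at an unadjusted p under 0.05), and the same held without the unmarked array of time point 8 (537), its r array (497) or the unmarked array of time point 9 (531). In the other direction, 62 genes were higher and 75 lower without the r array of time point 4, and 47 higher and 18 lower without the r array of time point 3. There were 6 and 6 without the unmarked array of time point 3, and 14 and 4 without the r array of time point 9. The balance also moved with the scaling. Centring within blocks of 540 probe numbers gave 5 higher and 7 lower, scaling the arrays to the same spread gave 8 and 10, and quantile normalization gave 14 and 23. The 4 genes are therefore described by their values on each array.

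Map2k6 encodes a MAP kinase kinase that phosphorylates and activates p38 kinases, which respond to stress and cytokines. Its log2 ratio was -1.58 on the unmarked and -0.72 on the r array of time point 3, and -1.94 and -1.62 at time point 4. Late it was -0.13 and 0.25 at time point 8, and -0.56 and -0.61 at time point 9. Every late array lay above every early array, and the r array of time point 3 was the early array nearest to the late ones. The mean rose from -1.46 to -0.26, by 1.20 ± 0.22 on the log2 scale (SE, n = 4 and 4 arrays) or 2.30-fold, with an adjusted p of 0.0256 by limma. The difference was 1.06 without the unmarked array of time point 4 (adjusted p 0.0822) and 1.03 to 1.30 without either array of time point 8 or the unmarked array of time point 9 (adjusted p 0.0750 to 0.117). Here and below, a value at time point 10 is that of its unmarked array alone, and time point 11 had only 1 array. At time points outside the comparison Map2k6 was at -1.13 (time point 1), -0.37 (2), -0.12 (7), 0.00 (10) and -0.28 (11). It was thus also low at the first time point, and from time point 7 on it lay between -0.61 and 0.25.

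Csnk1g2, a membrane-bound casein kinase 1 of the gamma type, was likewise low early and near the median probe late. Its early ratios were -1.26, -0.71, -1.70 and -0.86, in the order time point 3, its r array, time point 4 and its r array. Late, in the same order for time points 8 and 9, they were 0.08, -0.05, 0.11 and -0.54. The groups did not overlap, and 3 of the 4 late arrays lay within 0.11 of the median probe. The mean rose from -1.13 to -0.10, by 1.03 ± 0.19 (SE, n = 4 and 4) or 2.04-fold, at a limma adjusted p of 0.0256. Elsewhere it was at -0.36 (time point 1), -0.37 (2), 0.23 (7) and -0.04 (11). The early mean was therefore lower than each of these time points. The difference was 0.84 without the unmarked array of time point 4 (adjusted p 0.0985) and 0.96 to 1.02 without either array of time point 8 or the unmarked array of time point 9 (adjusted p 0.103 to 0.117).

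Mtmr9 encodes a myotubularin-related protein without phosphatase activity of its own, which binds and regulates active members of its family of phosphoinositide phosphatases. It had the largest difference of all genes tested. Its early ratios were -2.29, -0.97, -2.33 and -2.69, and the late ones were -0.45, -0.42 and -0.74, with no value on the r array of time point 9. The late arrays all lay above the early ones, but below the median probe. The mean rose from -2.07 to -0.54, by 1.53 ± 0.27 (SE, n = 4 and 3) or 2.89-fold, at a limma adjusted p of 0.0256. Outside the stretches it was -1.60 at time point 1, -0.69 at time point 2 and -1.93 at time point 7, with no value at time points 10 and 11. A ratio as low as the early ones thus came back at time point 7, between the stretches. The difference was 1.47 without the unmarked array of time point 4 (adjusted p 0.0646) and 1.48 to 1.64 without either array of time point 8 or the unmarked array of time point 9 (adjusted p 0.105 to 0.137).

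Mroh3, a member of a family of proteins with HEAT-like repeats, was the 1 gene whose ratio fell. Its early ratios were -0.26, 0.26, -0.20 and -0.29, and its late ratios were -1.0, -0.98, -1.08 and -0.81. The late arrays lay close together and all below the early ones, of which only the r array of time point 3 was above 0. The mean fell by 0.85 on the log2 scale, from -0.12 to -0.97, with an SE of 0.14 (n = 4 and 4) and a limma adjusted p of 0.0207. It was at -0.69, -0.52, -0.70, -0.89 and -1.31 at time points 1, 2, 7, 10 and 11, so the early stretch was the one nearest to the median probe. The difference was -0.86 without the unmarked array of time point 4 (adjusted p 0.0646) and -0.84 to -0.81 without either array of time point 8 or the unmarked array of time point 9 (adjusted p 0.0682 to 0.117).

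**Figure D1:**
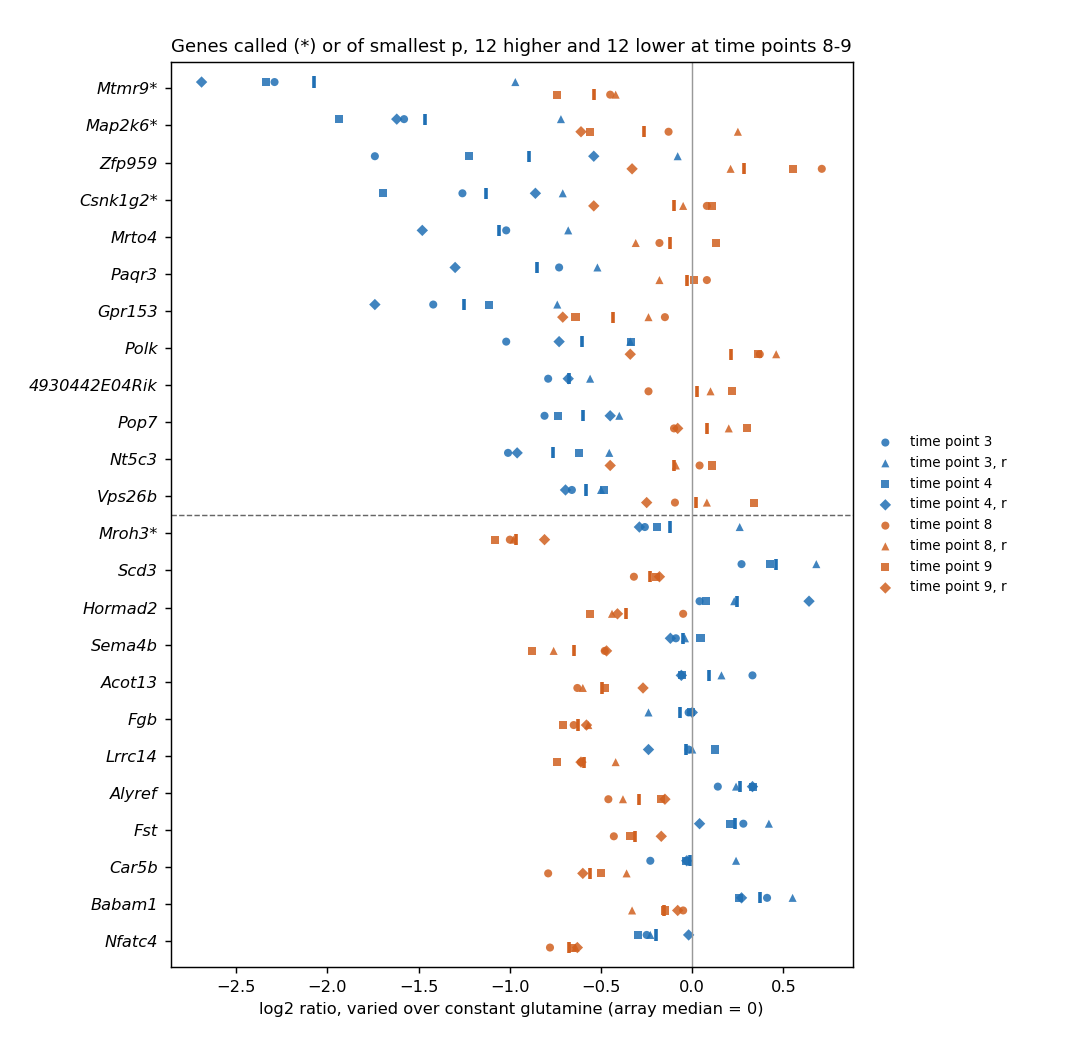
Log2 ratios (array median = 0) of the 4 genes that changed, starred, and of those next to the threshold, 12 in each direction, with 1 point per array (blue early, orange late, shapes as in the legend) and ticks for the mean of each stretch. For Mtmr9, Map2k6, Csnk1g2 and Mroh3 the early and late points do not overlap, and the early points of the first 3 reach from -2.69 to -0.71.

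Each of the 4 genes had 1 probe, so no second probe could be set beside it. The median late minus early difference of the 5 to 7 measured neighbouring probes was 0.08 for Mtmr9, -0.24 for Map2k6, 0.17 for Csnk1g2 and -0.09 for Mroh3. Each was smaller in size than the difference of the gene itself, and all but that of Map2k6 had the same sign as the gene. The part of place in these differences was not tested. With centring within blocks of 540 probe numbers the differences were 1.55 for Mtmr9 and -0.84 for Mroh3, both still called. They were 1.19 for Map2k6 and 0.88 for Csnk1g2 (1.20 and 1.03 with array medians), both at a limma adjusted p of 0.0539. Over all 22 settings tried, the difference ran from 0.90 to 1.45 for Map2k6 and from 0.84 to 1.18 for Csnk1g2, and each was called under 15. It ran from 1.15 to 1.92 for Mtmr9, which was tested under 21 of the settings and called under 15, and from -1.06 to -0.72 for Mroh3, which was called under 18. No setting turned a direction. The 3 higher genes varied more between early arrays (SD 0.76 for Mtmr9, 0.52 for Map2k6, 0.44 for Csnk1g2) than Mroh3 (0.26). With robust eBayes in limma these 3 were not called, at adjusted p-values of 0.140, 0.0720 and 0.0623, and Mroh3 was.

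The promoters of the changed genes are shown to let their composition be compared, since the 4 moved between the same arrays. RefSeq entries of the build GRCm38.p6 gave a promoter for 3 of the 4 genes. The sequences are the 250 bases before the first listed start, 5′ to 3′ on the gene's strand, and capitals mark the motif CCAAT. Map2k6 has 3 listed starts and lies on the plus strand (chr11:110398852-110399101), Csnk1g2 has 2 on the plus strand (chr10:80622530-80622779), and Mroh3 has 1 on the minus strand (chr1:136212821-136213070).
Map2k6: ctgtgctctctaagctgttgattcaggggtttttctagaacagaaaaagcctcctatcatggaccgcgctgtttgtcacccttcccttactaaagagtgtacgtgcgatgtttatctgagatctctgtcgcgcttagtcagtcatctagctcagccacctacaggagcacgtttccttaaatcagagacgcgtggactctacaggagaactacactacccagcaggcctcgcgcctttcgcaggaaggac
Csnk1g2: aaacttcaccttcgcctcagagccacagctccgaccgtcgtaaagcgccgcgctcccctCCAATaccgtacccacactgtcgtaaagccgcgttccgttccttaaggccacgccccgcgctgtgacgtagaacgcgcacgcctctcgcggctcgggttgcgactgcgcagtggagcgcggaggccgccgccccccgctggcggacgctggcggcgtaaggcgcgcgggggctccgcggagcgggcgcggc
Mroh3: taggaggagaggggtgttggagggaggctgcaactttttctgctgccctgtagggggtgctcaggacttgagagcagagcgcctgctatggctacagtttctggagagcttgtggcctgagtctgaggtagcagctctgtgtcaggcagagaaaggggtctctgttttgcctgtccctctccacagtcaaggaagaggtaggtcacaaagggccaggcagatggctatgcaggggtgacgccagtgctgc
The G and C content was 50.4% for Map2k6, 71.2% for Csnk1g2 and 57.6% for Mroh3, against a median of 52.4% over 32536 distinct promoters of the same length. On both strands, the amino acid response element TGATGNAA, the cyclic AMP response element TGACGTCA, CCAAT and the TATA box TATAAA were searched. Only CCAAT was found, once, in Csnk1g2. Over all promoters 3.40% held TGATGNAA, 1.56% TGACGTCA, 33.8% CCAAT and 12.3% TATAAA. A match or its lack describes these letters only.

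Genes next to the threshold had the same shape as those called: most of the higher ones started well below the median ratio. These genes had the smallest p-values of their direction but limma adjusted p-values of 0.054 to 0.075, so they are not called. Mrto4, an assembly factor of the large ribosomal subunit, was at -1.02, -0.68 and -1.48 early (no value on the unmarked array of time point 4) and at -0.18, -0.31 and 0.13 late, a difference of 0.95 ± 0.19 (SE). Pop7, a protein subunit of the RNA-processing enzymes RNase P and RNase MRP, was at -0.81, -0.40, -0.73 and -0.45 early and at -0.10, 0.20, 0.30 and -0.08 late. Its difference was 0.68 ± 0.14 (SE), and the groups did not overlap. The remaining higher differences were 0.83 for Paqr3 (a Golgi protein that binds Raf kinase), 0.82 for the orphan receptor Gpr153, 0.66 for the pyrimidine nucleotidase Nt5c3, 0.60 for the retromer subunit Vps26b and 0.71 for 4930442E04Rik. In 2 genes the stretches overlapped: the translesion DNA polymerase Polk (0.82) and the zinc finger gene Zfp959 (1.18). Some of these genes share a place on the array. Mrto4 and Paqr3 are probes 14647 and 14651, and Polk and 4930442E04Rik are probes 13519 and 13513. The neighbouring probes of Pop7 and Paqr3 themselves had median differences of 0.47 and 0.40, and the part of place in these results was not tested.

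On the lower side the genes next to the threshold lay below the median ratio late and started near it or above it. Sema4b, a transmembrane semaphorin, was at -0.09, -0.04, 0.04 and -0.12 early and at -0.48, -0.76, -0.88 and -0.47 late, a difference of -0.60 ± 0.13 (SE, n = 4 and 4). At time points 7 and 11 it was above 0, at 0.32 and 0.36 with no value at time point 10, so neither measured neighbour of the late stretch was low. Lrrc14, a leucine-rich repeat protein, went from -0.02, 0.00, 0.12 and -0.24 to -0.61, -0.42, -0.74 and -0.61 (difference -0.56 ± 0.12), and was at -0.52 and -0.51 at time points 10 and 11. Nfatc4, a calcineurin-dependent transcription factor, had a difference of -0.48 and was at -0.75 and -0.77 at time points 10 and 11. In both genes the late ratios thus resembled those of the last time points. The acyl-CoA thioesterase Acot13 had a difference of -0.59, the mitochondrial carbonic anhydrase Car5b of -0.55, and the meiotic gene Hormad2 of -0.61. The early means of these 3 were 0.09, -0.01 and 0.25. The stearoyl-CoA desaturase Scd3 went from a mean of 0.46 to -0.23 (difference -0.69), and Babam1, part of a DNA repair complex with BRCA1, from 0.37 to -0.15 (-0.52), so both started above the median probe. The neighbouring probes of Scd3 and Acot13 had medians of -0.38 and -0.30, and whether the probe of Scd3 tells it from its close relatives was not tested.

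At both ends of the range the early stretch was the wider one. The spread of the gene means was 0.27 (SD across 3932 genes) early and 0.22 late. Early means below -1 were found for 13 genes and late means below -1 for 3, none of them among the 13. All 13 had a positive difference, which follows in part from choosing them by a low early mean. In each of the 13, the r array of time point 3 was the early array nearest to 0. Mtmr9, Map2k6 and Csnk1g2 are among the 13. At the upper end 63 genes had an early mean above 0.5 and 40 a late mean above 0.5, and 16 were in both.

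A larger group of genes recurred. In the early stretch 976 genes were higher than the median probe (24.8%) and 465 lower (11.8%), and in the late stretch 500 were higher (12.7%) and 295 lower (7.5%), by limma against 0 at an adjusted p under 0.05. The genes tested had a median ratio of 0.08 early and 0.04 late, so a test against 0 leans to the higher side, more so early. In both stretches 368 genes were higher (9.36%) and 150 lower (3.81%). Across genes, early and late means correlated at 0.659 (Pearson) and 0.661 (Spearman), a description of arrays that share probes and dyes. No array had its dyes swapped, so a lasting difference between the flasks and a constant dye bias of a gene cannot be told apart in what recurs, whereas such a bias cancels in the late minus early difference. Without centring, 2301 genes were higher in both stretches and 9 lower, because the array medians lie above 0. Of the 150 lower genes, 9 were then called again and 83 had means below 0 in both stretches. Lower is therefore meant relative to the median probe. Without the unmarked array of time point 4, 177 genes were higher and 80 lower in both. Without the r array of time point 9 there were 229 and 86, without the r array of time point 8 there were 227 higher, and without the unmarked array of time point 9 there were 232 higher.

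**Figure D2:**
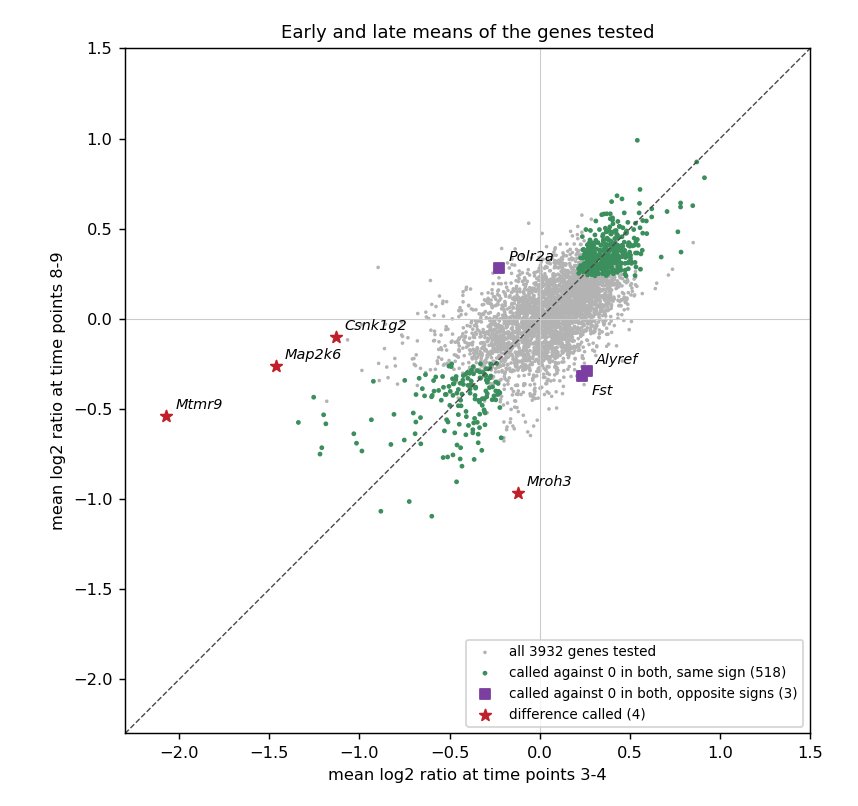
Mean log2 ratio of each of 3932 genes in the early stretch (horizontal) against the late stretch (vertical), both relative to the array medians. Stars mark the 4 genes that changed, squares the 3 called on opposite sides of 0, and green points the 518 called on the same side in both stretches, with the dashed line at equal means. Most genes lie in 1 cloud along the diagonal, and Mtmr9, Map2k6 and Csnk1g2 stand far to the left.

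The genes that recurred on the higher side were ranked by their mean nearer to 0. Anxa6, a calcium-dependent membrane-binding annexin, had means of 0.91 early and 0.78 late. Nfia, a transcription factor, had 0.71 and 0.59, with single arrays from 0.44 to 1.00 early and 0.55 to 0.67 late. Ndc80, which joins kinetochores to microtubules, had 0.55 and 0.64, and Mff, which recruits the mitochondrial fission machinery, had 0.62 and 0.56. Aif1, a calcium-binding protein known as a macrophage marker, had 0.55 and 0.59 with all 8 arrays between 0.37 and 0.81. The list is completed by 1810009A15Rik (0.78 and 0.62), the zinc finger gene Zfp934 (0.56 and 0.72) and Hspa5. In these genes other than Hspa5, all 8 arrays or all arrays with a value lay above 0.

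Hspa5, the main Hsp70 chaperone of the endoplasmic reticulum (BiP), was called in both stretches without being steady. Its early ratios were 0.96, 0.48, 0.84 and 1.11, and its late ratios -0.48, 1.00, 1.26 and 0.73. The unmarked array of time point 8 was below 0 and its r partner was among the highest. Without that unmarked array the late minus early difference turned from -0.22 to 0.15, not called in either case. Outside the stretches it was at 0.20 and 0.64 (time points 1 and 2), -0.81 (7), 1.09 (10) and -1.35 (11). Il1r1, the receptor for interleukin-1, had a like course: 1.08, 0.69, 0.74 and 0.89 early, -0.68, 0.88, 1.16 and 0.33 late, and -0.66, 1.06 and -1.53 at time points 7, 10 and 11. Both genes were therefore low on the unmarked array of time point 8 and at time points 7 and 11.

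On the lower side the genes were ranked in the same way, and Notch3 came first. Pacc1, a chloride channel opened by acid, had means of -1.21 and -0.71, and its r array of time point 8 was at -0.02. Mcts2, a retrocopy of a translation factor gene, had -1.22 and -0.75, and whether its probe tells it from the parent gene was not tested. Cit, a kinase needed for the last step of cell division, had -0.72 and -1.01. Notch3, a receptor of the Notch family, was at -0.91, -0.42, -1.15 and -1.05 early and at -0.89, -0.77, -1.40 and -1.21 late, with means of -0.88 and -1.07. Its difference of -0.19 ± 0.16 (SE) was within the spread of the arrays, and all 8 arrays lay below 0. Pfkl, the liver form of phosphofructokinase, had -1.02 and -0.69 with 1 array, the unmarked of time point 9, above 0 at 0.21. Mier2 (-1.03 and -0.64), the coatomer subunit Copz2 (-0.99 and -0.73) and the sperm tail gene Odf1 (-0.83 and -0.70) complete the list.

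**Figure D3:**
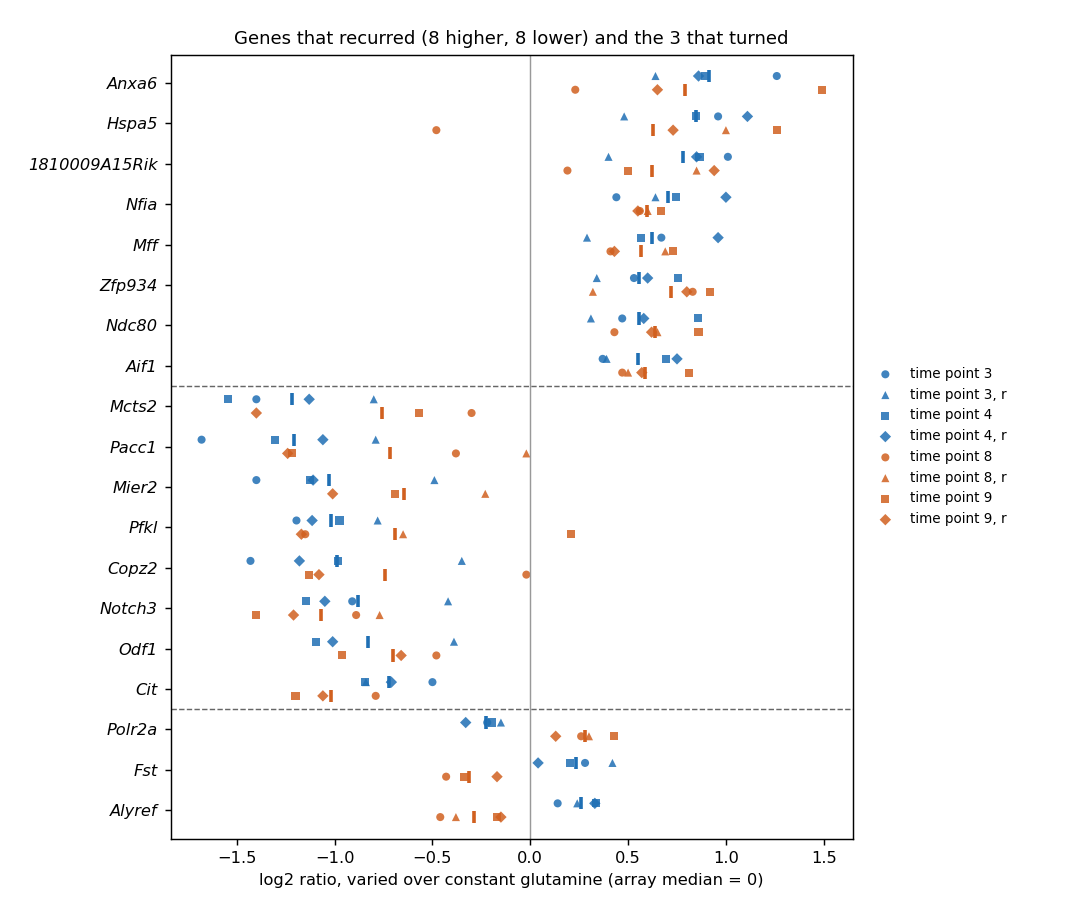
Log2 ratios on each of the 8 arrays for the 16 genes called on the same side of 0 in both stretches with the largest mean nearer to 0, and below them Polr2a, Fst and Alyref, called on opposite sides. Blue points are early arrays, orange points late arrays and ticks their means. The 8 higher genes lie above 0 on nearly all arrays, with the exception of Hspa5 at -0.48, and Pfkl at 0.21 is the exception among the 8 lower genes.

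The recurring genes mostly kept their side of 0 at the time points that were not compared. Of those with a value, 461 of 516 had the same sign at time point 1 (89.3%), against 74.7% of all genes whose early and late means shared a sign. The shares were 97.7% against 84.9% at time point 2, 89.2% against 73.9% at time point 7, 87.4% against 72.3% at time point 10 and 82.4% against 66.7% at time point 11. The genes set beside them include the recurring ones and genes with means near 0, so the shares also differ by the size of the ratio. These arrays share the dye layout of the others, so a dye bias would recur there too.

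Only 3 genes (0.0763%) were called against 0 in both stretches on opposite sides, and none of them was called for the difference itself. Polr2a, the largest subunit of RNA polymerase II, was at -0.22, -0.15, -0.20 and -0.33 early and at 0.26, 0.30, 0.43 and 0.13 late. All early arrays were below 0 and all late arrays above it, with a difference of 0.50 ± 0.12 (SE, n = 4 and 4, limma adjusted p 0.0635). It was positive at time points 1, 2, 7, 10 and 11 as well, from 0.08 to 0.66. Alyref, an adaptor that hands messenger RNA to the export machinery, went the other way, from 0.14, 0.24, 0.34 and 0.33 to -0.46, -0.38, -0.17 and -0.15 (difference -0.55 ± 0.12, adjusted p 0.0540 by limma). At the other time points it lay between -0.06 and 0.16, so the late stretch alone was clearly below 0. Fst, the activin-binding protein follistatin, was at 0.28, 0.42, 0.20 and 0.04 early and at -0.43, -0.34 and -0.17 late, with no value on the r array of time point 8 (difference -0.55 ± 0.14, limma adjusted p 0.0752). Without the unmarked array of time point 4, or either array of time point 8, no gene was called on opposite sides, and without the r array of time point 4 there were 11.

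**Figure D4:**
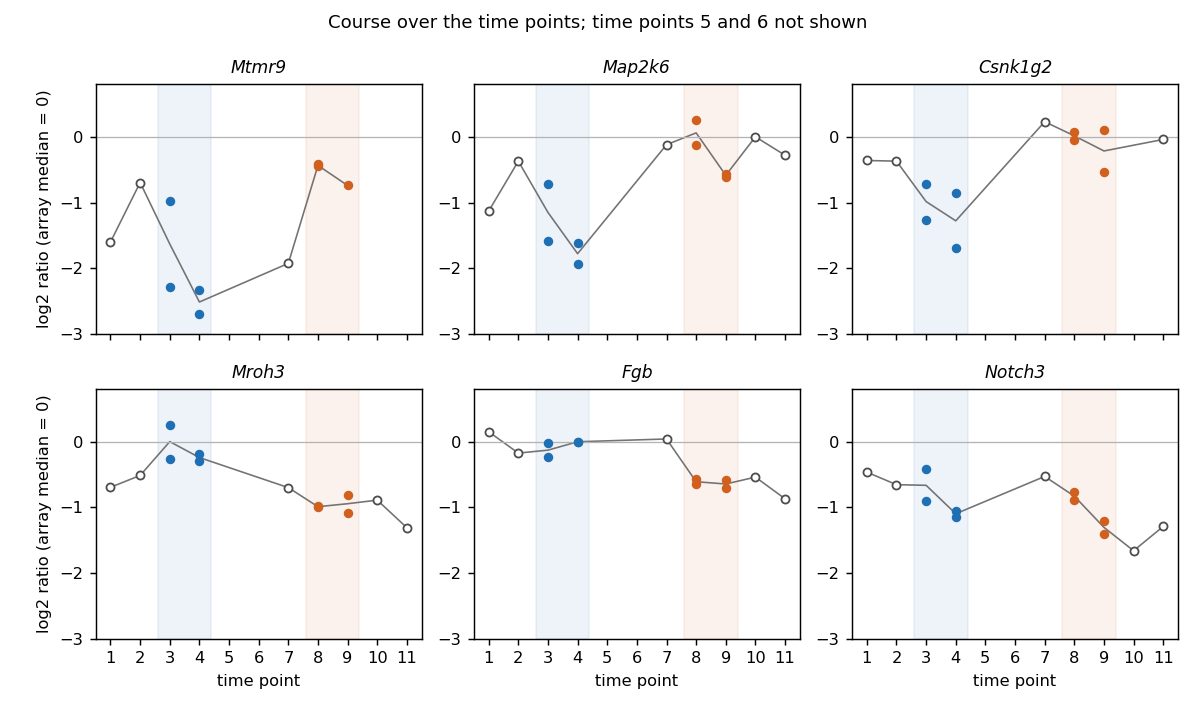
Log2 ratio by time point for the 4 genes that changed, for Fgb and for Notch3. Filled points are the single arrays of the compared time points, which are shaded, and open points are the other time points. Open points are means at time points 1, 2 and 7, the unmarked array alone at 10 and the only array at 11. The line joins the means or single arrays, with time points 5 and 6 not shown. Map2k6 is low at time points 1, 3 and 4 and lies between -0.61 and 0.25 from time point 7 on, whereas Mroh3 is nearest to 0 in the early stretch.

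Gene lists were described by their counts, since Map2k6 was the only called gene in any of 42 lists. Among proteins that hepatocytes secrete into plasma, 69 of 83 listed genes were on the array and 15 were tested, of which none was called and 13 had a negative difference, against 2253 of all 3932. Their median difference was -0.25 against -0.03 for all genes tested, and over all settings the median stayed between -0.30 and -0.19. Without the r array of time point 4, the setting with the most called genes, 3 of the 15 were called lower. Under that setting 75 of all 3932 genes were called lower. No other setting called more than 1 of the 15. In the lower direction 6 had an unadjusted p under 0.05 (9.13% of all genes), and 5 had all late arrays below all early ones (6.74%). The beta chain of fibrinogen, Fgb, was at -0.02, -0.24, -0.01 and 0.00 early and at -0.65, -0.57, -0.71 and -0.58 late. The late arrays lay close together and well below the early ones, with a difference of -0.56 ± 0.12 (SE, n = 4 and 4, limma adjusted p 0.0540). Fgb was at 0.15, -0.17 and 0.04 at time points 1, 2 and 7 and at -0.54 and -0.87 at time points 10 and 11. Its low ratios thus began with time point 8 and were seen at time points 10 and 11 too, on 1 array each. Centring within blocks of probe numbers left a difference of -0.48.

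Other secreted proteins had smaller differences in the same direction, all uncalled. Igfbp2, a binding protein of insulin-like growth factors, was at 0.16, 0.09, 0.36 and 0.04 early and at -0.13, -0.29, -0.34 and -0.30 late (difference -0.43 ± 0.12, SE). Hpx, the haem carrier hemopexin, was at 0.08, 0.11, -0.09 and 0.12 early and at -0.14, -0.33, -0.16 and -0.34 late (-0.30 ± 0.12). The coagulation factor F9 was at 0.48, 0.49, 0.30 and 0.48 early and at 0.22, 0.17, -0.15 and 0.26 late (-0.31 ± 0.13). In these 3 genes the stretches did not overlap, but F9 stayed above the median probe on 3 late arrays. The adhesion protein vitronectin (Vtn, -0.46) and the anticoagulant protein S (Pros1, -0.31) overlapped between the stretches. Among apolipoproteins the differences were -0.27 for Apoa4, -0.25 for Apoe, -0.20 for Apoc3, -0.15 for Apoa1, -0.05 for Apof and 0.24 for Apoa2. Haptoglobin (Hp, 0.20) and Apoa2 were the 2 members with a positive difference. Against 0, 6 of the 15 were called lower in the late stretch (7.5% of all genes) and none in the early one (11.8%). In the early stretch 2 were called higher, F9 and Apoc3, where 24.8% of all genes were. The median ratio of the list was 0.23, 0.10, 0.01, 0.02 and -0.05 at time points 1, 2, 3, 4 and 7, and -0.22, -0.22, -0.18 and -0.16 at time points 8 to 11. The median of all genes tested lay between 0.00 and 0.09 at the same time points.

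**Figure D5:**
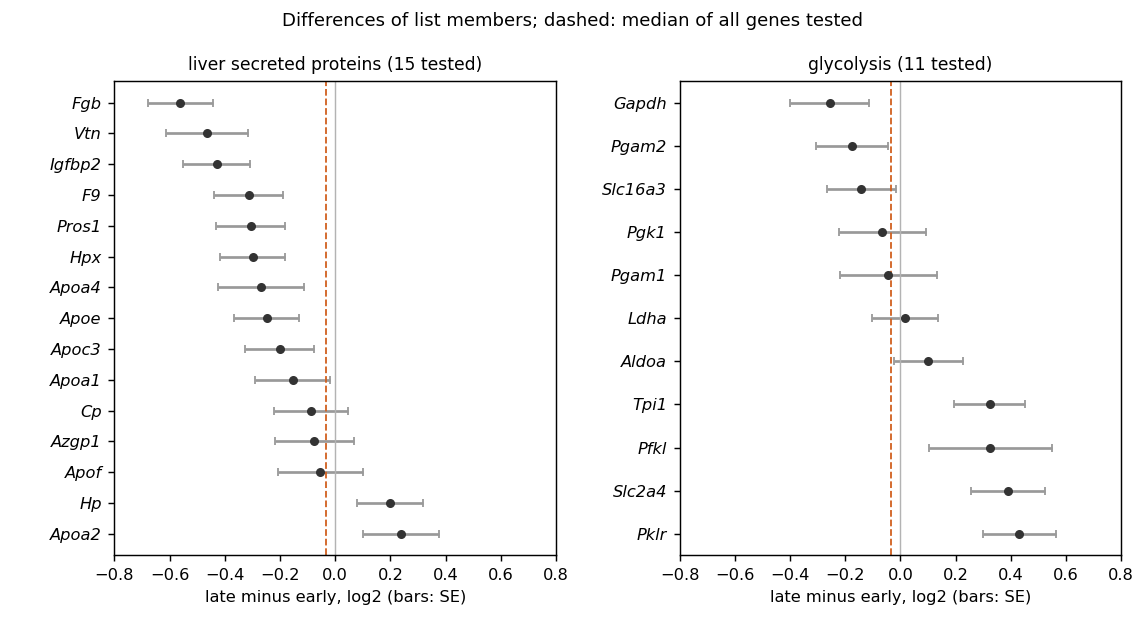
Late minus early difference on the log2 scale, with its SE as a bar, for the 15 tested secreted proteins of the liver and the 11 tested genes of glycolysis, with the median of all genes tested as a dashed line. Of the secreted proteins 13 lie below 0, whereas the genes of glycolysis lie on both sides.

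Glycolysis, the path from glucose to pyruvate and lactate, recurred mostly on the lower side of the median probe. Of 11 tested members (25 on the array), 5 were lower and 1 higher in both stretches, against 3.81% and 9.36% of all genes tested. The glyceraldehyde phosphate dehydrogenase Gapdh had means of -0.51 and -0.77, the phosphoglycerate mutase Pgam1 -0.52 and -0.56, the triose phosphate isomerase Tpi1 -0.63 and -0.31, and lactate dehydrogenase Ldha -0.31 and -0.30. Pfkl, given above, is the fifth, and the aldolase Aldoa was the higher one at 0.27 and 0.37. As deposited, without centring, Pfkl alone of the 5 was called lower in both, at -0.65 and -0.38, and Ldha had means of 0.05 and 0.01. In that scale 3 members were higher in both stretches and 1 lower, with medians of -0.14 early and 0.13 late, so the lower side holds only relative to the median probe. The list's median ratio was -0.51 early and -0.18 late. No member was called for the difference, and 3 had an unadjusted p under 0.05, all higher late (5.44% of all genes): the liver pyruvate kinase Pklr (0.43 ± 0.13, SE), the glucose transporter Slc2a4 (0.39 ± 0.13) and Tpi1 (0.32 ± 0.13). Pklr was at -0.65, -0.33, -0.51 and -0.75 early and at -0.32, -0.21, 0.08 and -0.06 late, so all late arrays were above the early ones. The median difference of the list was 0.02 and changed sign between settings, from -0.07 to 0.08.

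The ATF4 response to a shortage of amino acids had 40 of 52 listed genes on the array and 13 tested, with no called difference. Asns, Glul, Atf4, Slc38a2 and Chac1 had no value on any of the 8 arrays, Trib3 had 1 and the glutamine transporter Slc1a5 had 4, so none of these was tested. Ddit3, the stress transcription factor CHOP, was higher in both stretches (means 0.39 and 0.56, all 8 arrays between 0.25 and 0.81). Sesn2, which restrains growth signalling when amino acids are short, was also higher in both (0.38 and 0.32). Cebpb, a transcription factor of the acute phase, was lower in both (-0.64 and -0.43). Thus 2 of the 13 recurred higher and 1 lower, against 9.36% and 3.81% of all genes. Phgdh, the first enzyme of serine synthesis, was at -0.11, 0.15, -0.07 and -0.11 early and at -0.46, -0.51, -0.48 and -0.29 late. These stretches did not overlap (difference -0.40 ± 0.12, SE, limma adjusted p 0.143). The tRNA synthetases Wars (-0.46) and Sars (-0.34) also had all late arrays below the early ones, each with 1 or 2 arrays without a value. All late arrays lay below the early ones for 3 of the 13, against 6.74% of all genes. Slc6a9, a glycine transporter, went the other way, at -0.60, -0.29, -0.88 and -0.95 early and -0.20, 0.07, 0.14 and -0.50 late (0.56 ± 0.16, adjusted p 0.133 by limma). The stretches of Slc6a9 overlapped, through the r arrays of time points 3 and 9. Members of this list thus lay on both sides, 7 above 0 and 6 below.

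Other genes of amino acid use were measured in small numbers. Of 6 amino acid transporters tested, the glutamate transporter Slc1a1 was at -0.10, -0.35, -0.23 and -0.21 early and at 0.16, 0.15, 0.17 and 0.03 late, without overlap (0.35 ± 0.12, SE, uncalled). The transporter subunit Slc7a5 was at means of 0.12 and 0.21. Of 8 enzymes of glutamine, glutamate and related amino acids, Shmt1, which converts serine and glycine, had a difference of 0.42 ± 0.15, and Glud1, which links glutamate to the tricarboxylic acid cycle, one of 0.03 ± 0.14. In the tricarboxylic acid cycle itself 9 of 12 members had a negative difference (median -0.11), against 2253 of all 3932 genes. Of the 12, Sucla2 (0.45 and 0.28) and Mdh2 (0.43 and 0.29) were higher in both stretches, where 9.36% of all genes were. In the folding of proteins in the endoplasmic reticulum, with 14 tested, Ern2, a sensor of unfolded proteins, recurred higher (0.51 and 0.31). Edem1, which sends misfolded glycoproteins to degradation, recurred lower (-0.41 and -0.64), as did the disulfide isomerase P4hb (-0.50 and -0.40). With Hspa5, 2 of the 14 recurred higher and 2 lower, against 9.36% and 3.81% of all genes.

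Map2k6 did not share its course with the rest of its pathway list. Of 24 immediate early and MAP kinase genes tested, 14 had a negative difference and the median was -0.03. The p38 kinase Mapk13 was at 0.39, 0.64, 0.28 and 0.65 early and at 0.24, -0.13, -0.06 and 0.17 late, a difference of -0.43 ± 0.13 (SE, limma adjusted p 0.143). It thus lay lower late without overlap, opposite to Map2k6, and it was not called. The JNK kinase Mapk9 (-0.34) and the stress kinase Map3k5 (-0.31) were uncalled as well, and Fos (0.01) and Jun (-0.01) had differences near 0. Other lists had no called member. Negative differences were found for 21 of 27 genes of extracellular matrix and adhesion (median -0.07) and 37 of 53 of vesicle traffic (median -0.08), against 2253 of all 3932 genes. Of 43 cytosolic ribosomal proteins 24 were negative (median -0.03), a share near that of all genes.

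Among markers of other liver cell types, none was called. All cultures were of 1 hepatoma line, so these ratios are not read as numbers of such cells. Of 7 tested stellate cell and fibroblast markers 6 had a negative difference (median -0.18), against 2253 of all 3932 genes. The difference was -0.44 ± 0.17 (SE) for vimentin (Vim) and -0.36 ± 0.13 for decorin (Dcn). Of macrophage markers 3 were tested, with differences of 0.02 to 0.14, of cholangiocyte markers 4 (-0.17 to 0.19) and of endothelial markers 1 (Kdr, -0.25 ± 0.13). Of the 5 hepatocyte markers the tyrosine-degrading enzyme Fah had a difference of 0.50 ± 0.15. Tdo2 (-0.37 and -0.37) and Krt8 (-0.47 and -0.34) were lower in both stretches, where 3.81% of all genes were. The part that the makeup of the cultures has in these results was not tested.

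Arrays outside the comparison were used to see whether a difference went on. For 2 of the 4 changed genes, time points 10 (unmarked array) and 11 minus time points 1 and 2 gave a value, and both had the sign of their late minus early difference. These were Map2k6 and Mroh3. Of 450 genes with an unadjusted p under 0.05 in the comparison and a value outside, 334 kept their sign (74.2%), against 1890 of 3167 of all genes (59.7%). All genes include the 450 and genes with differences near 0, so these shares also differ by the size of the difference. The place of a probe also bore on the differences. Blocks of 540 probe numbers held 15.9% of the variance of the differences, their medians ran from -0.18 to 0.14, and the difference of a probe correlated with that of the next probe number at 0.262. No arrays were independent of that layout, so its part in the share of 74.2% was not tested.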

How the data were processed

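The labels describe two-colour arrays of total RNA from flasks with varied glutamine against flasks at constant glutamine. The authors deposited 1 log ratio per probe and array, taken here as log2; the normalization, the scanner software and the base are not given in the sources used here. Time points 5 and 6 entered only the fit on 18 arrays, which left out the r arrays of time points 6 and 10. A probe without a value was left out, and depth cannot be derived from ratios. Each array was centred on its median, probes of a symbol were averaged, and genes with 3 or more values a side were tested with limma 3.58.1 in R 4.3.3, with the time point as a random block (consensus correlation 0.0420) and Benjamini-Hochberg adjustment over 3932 genes at 0.05. The fit was run on simulated data with independent noise on each array, and only its mean estimates were checked against the differences put in. The rate of false calls was not checked, and effects of place or time point were not simulated. Symbols came from the platform annotation (14718 of 17280 probes had 1 symbol). Named genes are those called without overlap, filled to 12 a direction by smallest p, then the 8 highest and 8 lowest recurring, up to 6 on opposite sides, the 2 largest differences or the called members of each list, a fixed set of stress genes, and the 5 smallest p a direction outside the lists. Other list members were picked for the text after their values were seen. The comparison and the 42 lists were chosen with earlier results of these data known. Alternatives changed the block, centring, scaling, value filter, probe average and variance prior, and left out each array. Figures were drawn with matplotlib 3.10.9.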

Additional observations from a re-analysis of the deposited data

Results flagged for a closer look

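In 167 groups of 4 values of named genes, 9 had an array far from the other 3 of its stretch. That share is near the 1 in 20 that chance gives, so a single flag carries little weight. Every flagged array was one marked r. In the early stretch the r array of time point 3 stood apart for Fgb (-0.24, median of the others -0.01), Phgdh (0.15, others -0.11), Rpl12 (0.80, others 0.23) and Rpsa (0.62, others 0.08). The probes of the ribosomal protein genes Rpl12 and Rpsa are numbers 10699 and 10743, close to each other on the array. The r array of time point 4 stood apart for Ddit3 (0.69, others 0.31). In the late stretch the r array of time point 9 was low for the polymerase Polk (-0.34, others 0.37), the glutamate transporter Slc1a1 (0.03, others 0.16) and the cytochrome Cyp2j6 (-0.55, others -0.13). The r array of time point 8 was high for the clock repressor Nr1d1 (0.15, others -0.10).

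For 3 genes the early mean and the late mean were called against 0 on opposite sides, and every array lay on the side of its stretch, with a late minus early difference of -0.55 for Alyref, -0.55 for Fst and 0.50 for Polr2a. The difference itself was tested with limma and was not called in any of them.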

How the results depend on the processing

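Against 3 genes higher and 1 lower, arrays taken as independent gave 14 and 7, a fixed mean per time point 50 and 41, the same on 18 arrays 57 and 36, and 4 values a side 12 and 8. Arrays of a time point averaged first gave 6 and 1. Centring in blocks of 540 gave 5 and 7, scaling 8 and 10, and quantile normalization 14 and 23. With 2 or more values a side (698 at an unadjusted p under 0.05) or robust eBayes (578) the counts were 0 and 1. Leaving out single arrays gave 0 to 62 higher and 0 to 75 lower. Of 368 genes higher in both stretches, 198 were left with averaged arrays and 2301 were found without centring, with 177 to 448 when single arrays were left out. For 150 lower in both, the numbers were 9 without centring, 95 with 4 values a side and 80 to 185 without single arrays. Genes on opposite sides numbered 3, and 0 with averaged arrays, 6 with a fixed mean, without centring or with block centring, 0 to 11 without single arrays, and 1 with the replicate block. Called genes keeping their sign outside the stretches numbered 2 of the 2 with a value there, and 10 with block centring and 15 with 4 values a side. The larger counts go with more called genes, 5 and 7 with block centring and 12 and 8 with 4 values a side. Of all genes with a value outside, 59.7% kept their sign in the main setting.

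With the mark r as a replicate block, 3 genes were higher and 1 lower, and 320 and 135 recurred. The marks do not pair the arrays in a like way at all time points: differences between r and unmarked arrays correlated at -0.439 to 0.199 between time points, with 1 of 6 pairs over 0.1. The -0.439 was between time points 4 and 9. Across probes, arrays of these time points correlated at 0.639 and 0.573 when their marks differed. They correlated at 0.421 (unmarked) and 0.526 (r) when their marks were the same. What this grouping stands for was not tested. Apart from the genes on opposite sides (3 to 1), the block moved no count by over 1.5 times.

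Differences that reversed were all uncalled and under 0.28 in size, the largest being -0.22 for Hspa5. With block centring the reversed values were -0.00893 for C1qc and 0.00438 for Ndrg1. Without centring they were -0.0175 for Aif1 and -0.0375 for Ldha, and Ldha also reversed with scaling (-0.0339) and quantiles (-0.0427). Without single arrays, Hspa5 ran from -0.44 to 0.15, Sesn2 ran from -0.16 to 0.0392, Ndrg1 ran from -0.15 to 0.11, Aif1 ran from -0.0384 to 0.11, Ldha ran from -0.0293 to 0.0741 and Ebp ran from -0.15 to 0.0848. The cause was not tested. With 4 arrays a side, differences under 0.28 could not be told from 0 at the median SE.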
